A study of Mus musculus with 12 samples.

Results

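The imprinted growth genes H19, Igf2, Peg3, Dlk1, Meg3, Cdkn1c, Plagl1, Grb10, Peg10 and Ndn were followed over 4 sorted bins of mouse taste papilla epithelium. These 10 genes were taken by name from the 52670 symbols of the deposited tables. They were chosen on earlier results from these same libraries, so their levels and differences are given as a description, and no test of them is read as a result. Of the 10 members, 8 passed the filter on low counts, among 17432 genes that passed, while Dlk1 and Meg3 did not.

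The cells came from the epithelium of the circumvallate papilla, which carries many taste buds on the rear tongue, of adult mice aged 11 to 12 weeks. Every animal carried the genotype labelled Sox2GFP, a fluorescent reporter of the progenitor factor Sox2. The peeled epithelium was dissociated and sorted by reporter brightness into the bins Low, MedLow, HiMed and High, and cells without fluorescence were discarded, so every bin holds reporter-positive cells. Each bin has 3 polyadenylated RNA libraries, and each replicate pooled 7 to 13 mice. The spread between libraries is therefore the spread between such pools. No other genotype, treatment or age was compared.

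Imprinted genes are transcribed mainly from 1 parental copy, as set by DNA methylation laid down in the germ line. Many of them act on growth: paternally expressed genes such as Igf2 often promote it, and maternally expressed genes such as H19, Cdkn1c and Grb10 often restrain it. Most are high in the embryo and placenta and are turned down after birth, and several persist in adult stem and progenitor cells. The libraries do not separate the parental copies, so all values are sums over both.

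Library totals ran from 25670373 to 55583897 estimated counts. The sorted cells carried epithelial markers: Epcam, Cdh1, Krt5 and Krt8 together held between 6127 and 15207 CPM (counts scaled to library size) in every library. Summed markers of basal keratinocytes (Krt5, Krt14, Krt15, Trp63, Itga6, Col17a1) had means of 32466, 21791, 12950 and 6152 CPM, in the order Low, MedLow, HiMed and High. Summed markers of taste buds, 10 genes, had means of 675, 448, 853 and 3203 CPM in the same order. Of these 10, 8 rose in High against Low, where 41.2% of all genes were called and 21.2% were called lower. Pou2f3 was not called (adjusted p = 0.35 in edgeR). Trpm5, the channel of sweet, bitter and umami cells, fell from 62.9 to 18.6 CPM (adjusted p = 0.011 in edgeR). In bulk libraries of this kind, fewer cells of a type and less RNA per cell cannot be told apart.

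The members spanned a wide range of levels. On the deposited TPM scale, which divides by transcript length and so allows genes to be compared, the mean over the 12 libraries was 78.2 for H19, 43.9 for Plagl1, 16.97 for Cdkn1c and 4.67 for Peg3. Grb10 followed at 2.66 TPM, Igf2 at 1.49 TPM and Ndn at 1.14 TPM. The remaining members, Dlk1 at 0.109 TPM, Peg10 at 0.0549 TPM and Meg3 at 0.00272 TPM, were at the edge of detection. Below, levels of a single gene across bins are given in CPM with TMM scaling, which keeps the depth of each library in view. The bins ordered the members in different ways. H19, Igf2, Peg3 and Plagl1 were lowest in High, Cdkn1c, Grb10 and Ndn were highest in High, and the 3 near-absent members had most of their few reads in Low.

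**Figure D1:**
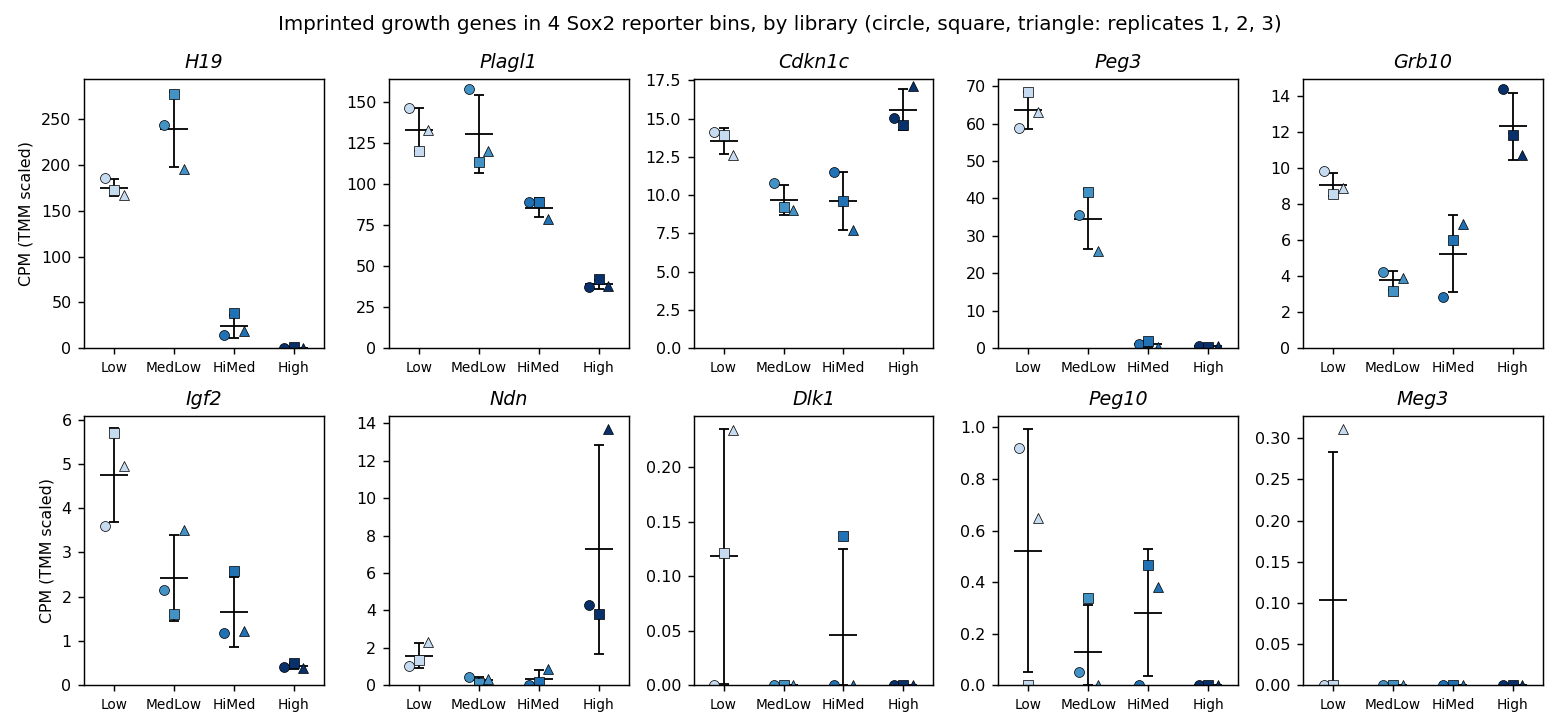
Levels of the 10 members in CPM with TMM scaling (y axis, linear, its own range in each panel) by reporter bin (x axis). Points are single libraries, horizontal dashes are bin means and bars are the SD of 3 libraries, clipped at 0. H19, Peg3, Igf2 and Plagl1 stand highest in Low or MedLow, and Ndn, Grb10 and Cdkn1c stand highest in High.

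H19, a long noncoding RNA made from the maternal copy, showed the widest range of the members. In Low it stood at 185, 173 and 168 CPM in replicates 1, 2 and 3. In MedLow it stood at 244, 277 and 196 CPM, and all 3 of these libraries lay above all 3 of Low. In HiMed the values dropped to 14.4, 38.2 and 19.1 CPM, and in High to 0.225, 0.979 and 0.120 CPM, with no overlap between neighbouring bins. The High values rest on 10, 54 and 6 estimated counts, against 4281 to 7877 counts in Low. From the dimmest to the brightest bin the means were thus 175 ± 9.18, 239 ± 41.2, 23.9 ± 12.6 and 0.441 ± 0.469 CPM (SD, n = 3 each).

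Expressed as ratios of bin means, H19 was 1.36-fold higher in MedLow than in Low and 54.2-fold lower in High than in HiMed. The fitted log2 difference of MedLow against Low was 0.45 (SE 0.41) and was not called. The fitted log2 difference of High against Low was -8.56 (SE 0.64). Leaving out the second High library, which holds most of the H19 reads of that bin, moved it to -9.99, and moved High against HiMed from -5.68 to -7.11. The fitted step from MedLow to HiMed was -3.33 (SE 0.46) and that from HiMed to High was -5.68 (SE 0.61), and the difference between these steps was not tested.

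H19 is also the host of a microRNA whose mature arms are cut from its first exon. The arms are shown because the seed (bases 2 to 8, in capitals) is the part by which a microRNA recognises its targets. Both come from the RefSeq annotation on GRCm38.p6, minus strand, at chr7:142577112-142577133 for the 5p arm and chr7:142577078-142577099 for the 3p arm.
miR-675-5p: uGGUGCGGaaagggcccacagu
miR-675-3p: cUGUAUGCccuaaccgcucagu
The deposited tables list Mir675 at 0 counts in all 12 libraries, so nothing is measured here of the microRNA itself. The seeds of the arms differ, and each arm is therefore its own seed group.

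Igf2, the paternally expressed growth factor that shares enhancers and an imprinting control region with H19, was present at a much lower level. Its libraries stood at 3.60, 5.69 and 4.96 CPM in Low and at 2.16, 1.60 and 3.50 in MedLow. They stood at 1.17, 2.57 and 1.21 CPM in HiMed and at 0.405, 0.508 and 0.399 in High. All Low libraries lay above all MedLow libraries, MedLow and HiMed overlapped, and all High libraries lay below those of HiMed. The mean in Low, 4.75 ± 1.06 CPM (SD, n = 3), was 10.9 times that in High, 0.437 ± 0.0612 CPM. The fitted log2 difference of High against Low was -3.43 (SE 0.51).

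H19 and Igf2 did not keep a fixed ratio over the bins. Per estimated count of Igf2 there were 30.4 to 51.5 counts of H19 in the Low libraries and 55.9 to 174 in the MedLow libraries. In HiMed the ratio was 12.3 to 15.7, and in High it was 0.300 to 1.93. On this count scale the ranges of the 4 bins did not overlap, although the High ratios rest on few reads of either gene. On the TPM scale the ratio was 18.5 to 107 in Low, 100.7 to 378 in MedLow, 12.3 to 23.2 in HiMed and 0.904 to 3.32 in the High libraries. There Low overlapped with both MedLow and HiMed, and only High stood apart from every other bin.

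For Igf2 the count and TPM scales differed by library. The number of counts behind 1 TPM, relative to the median gene of the library, reflects the effective length that the quantification gave the gene. For Igf2 it ran from 0.545 in the second Low library to 2.00 in the second MedLow library. For Peg3 it stayed between 2.56 and 3.81, and for H19 between 0.795 and 0.925 outside High. In the High libraries of replicates 1 and 3, where H19 had 10 and 6 counts, it was 0.348 and 0.342. The transcripts behind these values are not in the gene-level tables. On the log2(TPM + 1) scale, which has a pseudocount of 1, the difference of Igf2 between HiMed and MedLow was 0.22 against -0.55 (SE 0.46) in the count fit, so its direction between the middle bins is not settled.

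**Figure D2:**
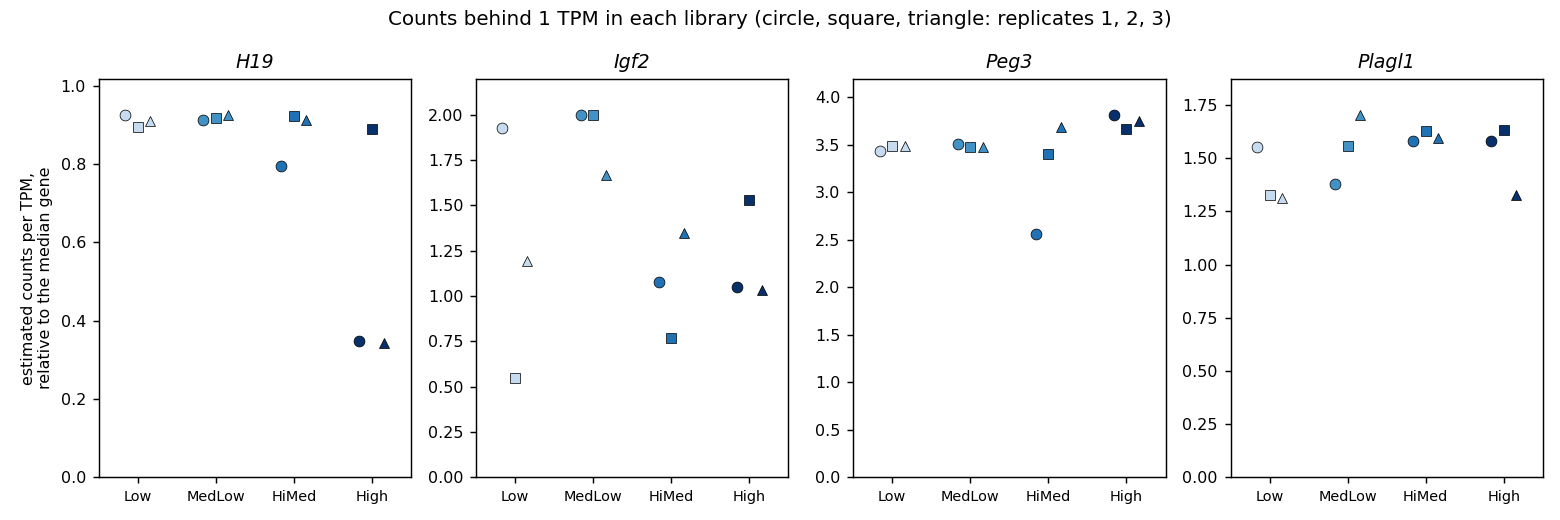
Estimated counts behind 1 TPM, relative to the median gene of the same library (y axis), by reporter bin (x axis) for H19, Igf2, Peg3 and Plagl1, with 1 point per library. Igf2 ranges from 0.545 to 2.00, whereas H19 lies between 0.795 and 0.925 except in 2 High libraries near 0.345.

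The immediate neighbours of H19 and Igf2 were scarce. Ins2 and Tnnt3 did not pass the filter, and of the 3 tested genes of this stretch only Th, the enzyme tyrosine hydroxylase, was called between High and Low, where 41.2% of all genes were called (edgeR quasi-likelihood test, Benjamini-Hochberg adjusted p = 6.3e-04). Th had 1.27 ± 0.71 CPM in Low and no count in High, at least 63.2-fold lower when High is set to its floor of 3 counts over the bin. Mrpl23 (log2 difference -1.30, adjusted p = 0.062 in edgeR) and Lsp1 (-1.65, adjusted p = 0.14 in edgeR) did not pass.

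Peg3, a paternally expressed zinc finger protein with many fingers, had the second widest range. Its libraries held 58.9, 68.5 and 63.2 CPM in Low and 35.7, 41.7 and 25.8 in MedLow. They held 1.14, 1.83 and 0.272 CPM in HiMed and 0.653, 0.254 and 0.498 in High. Low lay above MedLow and MedLow above HiMed in every library, while HiMed and High overlapped. Ordered by brightness, the means were 63.5 ± 4.83, 34.4 ± 8.02, 1.08 ± 0.782 and 0.468 ± 0.201 CPM (SD, n = 3 each). The steepest step was therefore from MedLow to HiMed, 31.8-fold on bin means, with a fitted log2 difference of -5.06 (SE 0.50). From HiMed to High the fitted value was -1.16 (SE 0.59). It was -0.56 without the second HiMed library and -1.68 without the third, and over 24 settings it ranged from -1.68 to -0.18. The fitted value of H19 was -3.33 (SE 0.46) from MedLow to HiMed and -5.68 (SE 0.61) from HiMed to High, and the difference between the genes was not tested at either step.

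The neighbours of Peg3 were read at very low levels. Zim1, a maternally expressed zinc finger gene next to it, had 0.929 ± 0.23 CPM in Low and 0.610 ± 0.36 in MedLow, and no count in HiMed or High. It fell between High and Low (at least 46.4-fold against a floor of 3 counts, adjusted p = 0.0034 in edgeR) and between HiMed and MedLow (adjusted p = 0.017 in edgeR). Usp29, a paternally expressed ubiquitin protease gene that shares a promoter region with Peg3, had 0.445 CPM in Low, 0.141 in MedLow and none in HiMed or High, and it did not pass the filter. Zik1 (log2 difference 1.396, adjusted p = 0.083 in edgeR) and Zfp264 (0.73, adjusted p = 0.76 in edgeR), other zinc finger genes nearby, were not called.

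The sequences upstream of Peg3, Plagl1 and Ndn are shown because these members stand for the 3 kinds of profile: a drop at HiMed, a graded decline and a peak in High. Each is the 250 bases before the annotated start in RefSeq on GRCm38.p6, at chr7:6730420-6730669 on the minus strand for Peg3, chr10:13090582-13090831 on the plus strand for Plagl1 and chr7:62348027-62348276 on the plus strand for Ndn. Capitals mark GGGGCCCC, the core motif known for the Plagl1 protein, and GGGCGG or its complement CCGCCC, the motif of Sp factors.
Peg3: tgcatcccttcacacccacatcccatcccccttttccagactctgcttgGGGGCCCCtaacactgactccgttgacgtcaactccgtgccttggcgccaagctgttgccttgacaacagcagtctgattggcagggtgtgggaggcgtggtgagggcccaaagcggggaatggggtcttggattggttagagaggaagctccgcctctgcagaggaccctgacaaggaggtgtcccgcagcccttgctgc
Plagl1: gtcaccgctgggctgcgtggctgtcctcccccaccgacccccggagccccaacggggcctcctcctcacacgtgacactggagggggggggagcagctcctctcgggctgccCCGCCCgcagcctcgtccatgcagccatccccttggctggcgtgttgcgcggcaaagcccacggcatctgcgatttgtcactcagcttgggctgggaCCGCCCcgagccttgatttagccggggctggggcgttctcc
Ndn: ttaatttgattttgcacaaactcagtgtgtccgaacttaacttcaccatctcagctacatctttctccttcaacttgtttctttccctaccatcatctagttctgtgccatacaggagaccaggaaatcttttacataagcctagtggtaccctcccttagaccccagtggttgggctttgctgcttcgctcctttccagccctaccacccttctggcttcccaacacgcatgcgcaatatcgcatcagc

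GGGGCCCC, which reads the same on both strands, lies 201 bases before the start of Peg3 and in no other of the 12 RefSeq promoter windows found for 7 of the 10 members. Each window spans 300 bases, with 50 past the start. Of 32817 such windows in the mouse table, 1.07% hold this motif. GGGCGG on either strand occurs 2 times in the Plagl1 window and 5 times in 1 of the Grb10 windows, and 35.6% of all windows hold it at least once. It also occurs in the Ndn window, past the start, and in 2 of the Igf2 windows. TATAAA, searched on both strands and held by 13.6% of all windows, was found among the 12 windows in 1 of Meg3. CATTGTT, a motif of Sox factors held by 3.79% of all windows on either strand, was found in 1 of Igf2. The CpG count was 45 in that Grb10 window, 26 for Plagl1, 13 for Peg3 and 11 for Ndn, beside a median of 7 over all windows. It was 9 in the other Grb10 window and in that of Dlk1. The Igf2 windows held 2, 14, 24 and 7, and those of Meg3 held 13 and 1. These matches describe the letters of the windows and say nothing of binding in these cells.

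Plagl1, a paternally expressed zinc finger transcription factor that can halt the cell cycle and that is known to act on other imprinted genes, was lower in the brighter bins by small steps. It stood at 147, 120 and 133 CPM in Low and 158, 113 and 120 in MedLow. It stood at 89.2, 89.4 and 78.8 CPM in HiMed and 37.0, 42.0 and 37.6 in High. Low and MedLow overlapped, and the later bins separated fully from each other. The mean of 133 ± 13.3 CPM (SD, n = 3) in Low was 3.43 times the mean of 38.9 ± 2.70 CPM in High. Its standard errors were the smallest of the members, with log2 differences of -0.03 (SE 0.12) from Low to MedLow, -0.61 (SE 0.12) from MedLow to HiMed and -1.14 (SE 0.12) from HiMed to High.

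Between Low and MedLow, Plagl1 thus differed by less than its spread between libraries. The fitted log2 difference of MedLow against Low was 0.45 (SE 0.41) for H19 and -0.88 (SE 0.40) for Peg3, and neither was called. Of its neighbours, Ltv1, a ribosome biogenesis factor, fell in High against Low by 0.47 on the log2 scale (adjusted p = 0.0036 in edgeR). Sf3b5, a splicing factor subunit, fell by 0.34 (adjusted p = 0.026 in edgeR). Phactr2, a phosphatase regulator, was not called in that comparison (log2 difference -0.14, adjusted p = 0.26 in edgeR).

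Cdkn1c, the maternally expressed inhibitor of cyclin-dependent kinases also called p57, changed least among the members that passed the filter. Its libraries stood at 14.1, 13.9 and 12.6 CPM in Low and at 10.8, 9.22 and 9.00 in MedLow. They stood at 11.5, 9.60 and 7.73 CPM in HiMed and at 15.1, 14.6 and 17.1 in High. The outer bins lay above the middle bins in every library, and MedLow and HiMed overlapped. The highest bin mean, 15.6 ± 1.35 CPM (SD, n = 3) in High, was 1.62 times the lowest, 9.62 ± 1.89 in HiMed. Against Low, the log2 difference of High was 0.20 (SE 0.18) in counts and 0.68 on the log2(TPM + 1) scale.

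The Kcnq1 cluster around Cdkn1c moved gene by gene. All 9 of its listed neighbours were tested, and 2 rose and 3 fell in High against Low, where 41.2% of all genes were called and 21.2% were called lower. Kcnq1, a potassium channel that also serves as a taste bud marker here, rose from 11.5 to 90.1 CPM (log2 difference 2.96, adjusted p = 2.2e-05 in edgeR). Cd81, a tetraspanin, rose by 0.38 on the log2 scale (adjusted p = 0.0020 in edgeR). Kcnq1ot1, the paternal antisense noncoding RNA that silences the cluster, fell from 33.9 to 13.98 CPM (log2 difference -1.28, adjusted p = 5.8e-04 in edgeR). The stranding of the counting is not given in the sources used here, so reads of Kcnq1 and its antisense RNA may not be fully separated.

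Ascl2, a basic helix-loop-helix factor of stem and placental cells, fell from 16.1 to 3.07 CPM (log2 difference -2.39, adjusted p = 9.1e-05 in edgeR). Phlda2, a placental growth restrainer, fell by 0.78 on the log2 scale (adjusted p = 0.041 in edgeR). Slc22a18, Nap1l4, Tssc4 and Osbpl5 were not called between these bins.

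Grb10, an adaptor that binds insulin and IGF receptors and dampens their signal, had a dip in the middle bins. It stood at 9.82, 8.55 and 8.90 CPM in Low and 4.22, 3.19 and 3.92 in MedLow. It stood at 2.83, 5.99 and 6.92 CPM in HiMed and 14.4, 11.8 and 10.8 in High. High lay above Low, and Low above both middle bins, in every library, while MedLow and HiMed overlapped. The mean in High, 12.3 ± 1.86 CPM (SD, n = 3), was 3.26 times that in MedLow, 3.78 ± 0.526. The fitted log2 difference was -1.27 (SE 0.28) from Low to MedLow, 0.47 (SE 0.28) from MedLow to HiMed and 1.23 (SE 0.28) from HiMed to High. For High against Low it was 0.44 (SE 0.28), in a comparison where 52.4% of all genes had libraries that did not overlap.

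Next to Grb10, Cobl, an actin nucleator, rose from 31.1 CPM in Low to 136 in High (log2 difference 2.12, adjusted p = 5.9e-09 in edgeR). Ddc, the decarboxylase of aromatic amino acids, fell from 8.39 to 2.29 CPM (log2 difference -1.88, adjusted p = 0.0025 in edgeR). Fignl1, a DNA repair ATPase gene, was not called (log2 difference -0.10, adjusted p = 0.85 in edgeR). The genes on this stretch thus differed in direction from each other.

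Ndn, which encodes necdin, a paternally expressed MAGE family protein known from postmitotic neurons, was the member most concentrated in High. Its libraries held 1.04, 1.37 and 2.31 CPM in Low and 0.437, 0.0968 and 0.316 in MedLow. They held 0, 0.191 and 0.851 CPM in HiMed and 4.28, 3.83 and 13.7 in High. All High libraries lay above all others, and Low lay above MedLow. The High mean of 7.27 ± 5.58 CPM (SD, n = 3) was set in large part by replicate 3, with 688 counts against 190 and 211. The fitted log2 difference of High against Low was 2.21 (SE 0.97), and 1.36 without that library. Against HiMed it was 4.34 (SE 1.07), and 6.26 without the third HiMed library.

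The third High library also stood apart in other measures. Its taste bud marker sum was 4223 CPM, against 3024 and 2362 in the other High libraries, and its leukocyte marker sum, mostly Lyz2, was 308 CPM against 103 and 120. Their part in the Ndn value was not tested. Magel2, the MAGE gene beside Ndn, was also read mainly in High, at 1.72 ± 1.6 CPM against 0.0817 in Low, but was not called (log2 difference 4.29, SE 1.81, adjusted p = 0.075 in edgeR). Of the 6 tested neighbours of Ndn, only Atp10a, a phospholipid flippase, was called, beside 41.2% of all genes: it rose step by step over the bins, with means of 14.7, 24.2, 35.4 and 47.8 CPM (log2 difference of High against Low 1.69, adjusted p = 1.6e-07 in edgeR). Snrpn, a small nuclear ribonucleoprotein gene, had a log2 difference of -2.08 (adjusted p = 0.25 in edgeR), and Snhg14, Mkrn3 and Ube3a did not pass either.

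Dlk1, Meg3 and Peg10 were close to or below what these depths resolve. Dlk1, a paternally expressed transmembrane protein related to Notch ligands, had 3 and 9 counts in Low replicates 2 and 3, 5 counts in HiMed replicate 2, and none in the other 9 libraries. Meg3, the maternally expressed noncoding RNA of the same cluster, had 12 counts in Low replicate 3 and none in the other 11 libraries. A bin with no count allows a level of up to 0.0284 CPM in Low and 0.0200 CPM in High (3 counts over the bin, which covers counting error only).

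Peg10, a paternally expressed gene derived from a retrotransposon, had 39, 0 and 25 counts in Low, 2, 14 and 0 in MedLow, 0, 17 and 21 in HiMed, and none in High. Its High level was at least 26.1-fold lower than its Low mean of 0.522 CPM, though replicate 2 of Low held none. Of their listed neighbours, 3 of 6 beside Dlk1 and Meg3 and 4 of 9 beside Peg10 passed the filter, and Rtl1, Calcr and Tfpi2 had no count in any bin. Beside Dlk1 and Meg3, Begain, a synaptic scaffold gene, fell from 2.23 to 0.376 CPM (log2 difference -2.57, adjusted p = 4.0e-04 in edgeR), while Wdr25 (0.39, adjusted p = 0.38 in edgeR) and Dio3 (-1.22, adjusted p = 0.68 in edgeR) were not called. Beside Peg10, the sialic acid acetyltransferase Casd1 rose by 0.97 on the log2 scale (adjusted p = 5.5e-05 in edgeR), the lactonase Pon2 by 0.84 (adjusted p = 1.9e-05 in edgeR) and the phosphatase regulator Ppp1r9a by 1.46 (adjusted p = 0.0053 in edgeR). Pon3 was not called.

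Set side by side, the members shared no single direction. In High against Low, 5 of the 8 members that passed the filter were called, each of them lower, and the libraries of 7 did not overlap. The 5 were H19, Igf2, Peg3, Plagl1 and Peg10. The call of Peg10 rests on 39, 0 and 25 counts in Low, and its libraries overlapped. Over all 17432 genes, 41.2% were called in this comparison, and 21.2% were called lower, and 52.4% had libraries that did not overlap. In MedLow against Low 1 member was called, beside 6.47% of all genes. In HiMed against MedLow 3 members were called lower, beside 13.6% of all genes called and 6.30% called lower. In High against HiMed 3 members were called higher (Cdkn1c, Grb10 and Ndn) and 3 lower (H19, Igf2 and Plagl1), beside 22.3% of all genes called, 10.6% higher and 11.7% lower. Since the members were chosen on these libraries and 2 of them dropped out at the filter, nothing is read from these counts. The comparisons also share bins, so their values are not independent.

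**Figure D3:**
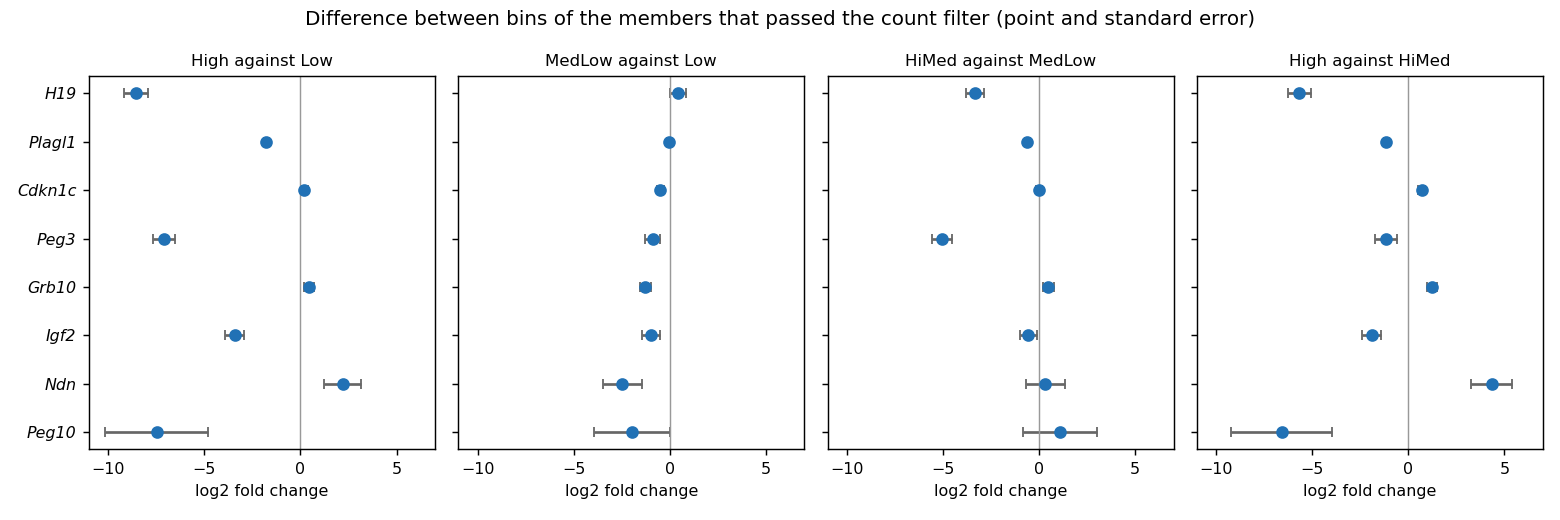
Fitted log2 fold changes (x axis) of the 8 members that passed the count filter (y axis) in 4 comparisons, first bin over second, with bars for the standard error. H19 and Peg3 lie far to the left in High against Low (-8.56 and -7.10), and the fitted value of Peg10, which has no count in High, depends on the prior count and is no bound.

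Genes with the profile most like that of a member were found over the 12 libraries, as those with the smallest root mean square difference in centred log2(CPM + 1) among 12525 candidates. For H19 the nearest was Krt15, a keratin of basal progenitors, at a difference of 0.37, where H19 itself varied by 2.98 around its mean. The bin means of Krt15 were 6226, 4885, 659 and 26.4 CPM. The next were Barx2, a homeobox gene (0.55), and Adamts15, a matrix protease (0.66). For Peg3 the nearest was Irx4, a homeobox gene, at 0.43, with 55.1, 15.8, 0.404 and 0 CPM from Low to High. The glutamate transporter Slc1a3 (0.54) and the phosphatase subunit Ppp2r2c (0.60) followed.

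For Igf2, which varied by 0.76, the nearest were the AMP deaminase Ampd3 (0.24), the cyclin Ccnd1 (0.25) and the zinc transporter Slc39a4 (0.27). Ccnd1 was 3.52-fold lower in High than in Low, and Igf2 was 10.9-fold lower. The added 1 CPM shrinks the differences of genes at low levels such as Igf2, so these folds need not match. The nearest to Plagl1 were Mapkbp1 (0.13), Klhdc8b (0.15) and Rps6ka5 (0.15), against a variation of 0.72 in Plagl1. For Cdkn1c they were Lrrc45 (0.11), Tinagl1 (0.12) and Csnk1e (0.13), with the same dip in both middle bins. For Grb10 they were Sytl2 (0.25), the Wnt ligand Wnt11 (0.28) and the nuclear pore protein Nup210 (0.29), all lowest in MedLow and highest in High. For Ndn they were Susd3 (0.32), the calcium channel subunit Cacna2d3 (0.32) and Tspear (0.35). Closeness here describes these libraries, which share their bins and pools.

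**Figure D4:**
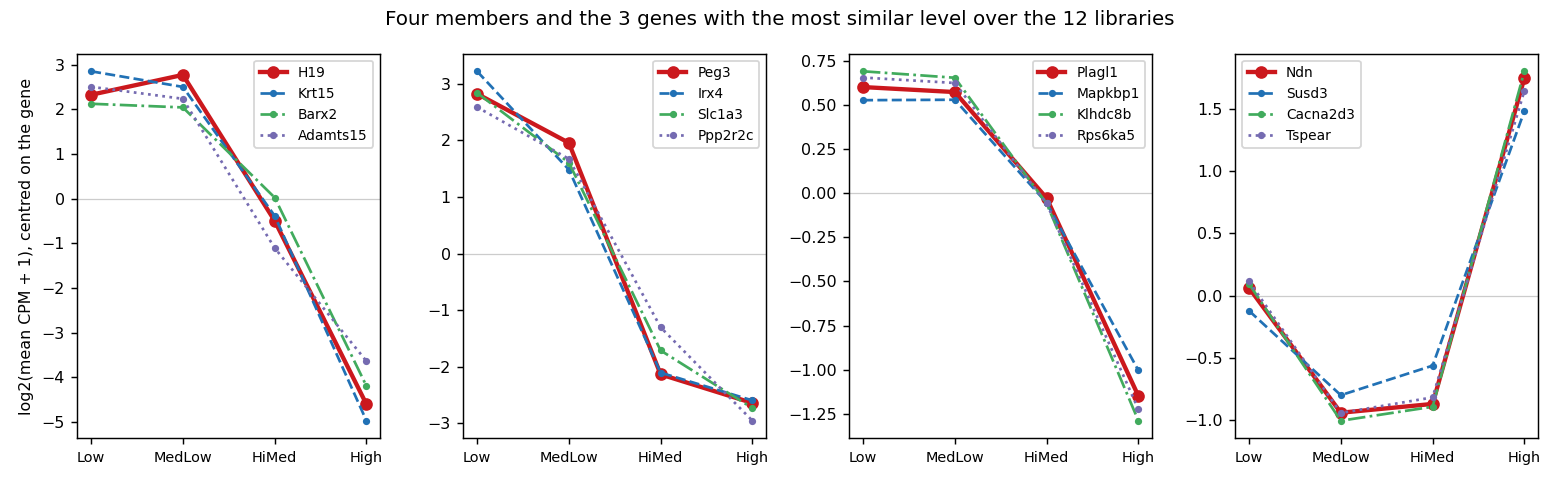
Profiles of H19, Peg3, Plagl1 and Ndn (thick red) and of the 3 genes nearest to each (thin), as log2 of the mean CPM + 1 centred on each gene's mean over bins (y axis), by reporter bin (x axis). H19 runs close to Krt15, and Ndn and its neighbours share low middle bins and a high value in High.

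Markers of other cell types moved with some members, and their part in the members' levels was not tested. The 10 fibroblast markers summed to 603 to 642 CPM in the Low libraries and 106 to 194 in MedLow. The sum was 35.0 to 40.2 CPM in HiMed and 8.73 to 17.4 in High. Dcn made up most of the sum in Low, with 608 CPM, and held 6.95 CPM in High. Pdgfra rose between Low and High from 2.67 to 5.99 CPM (adjusted p = 0.042 in edgeR). Lum and Dpt were at 0 in every bin, and Col1a1 held 0.980 CPM in Low. Pericyte and smooth muscle markers summed to 155 to 164 CPM in the Low libraries and 4.30 to 9.50 in those of High, mostly Cspg4, with Rgs5 at 0 in all bins but MedLow. The gland and duct sum was 711 to 2045 CPM in Low and 13.9 to 116 in High, whereas its member Aqp5 rose from 1.58 to 22.4 CPM (adjusted p = 2.3e-06 in edgeR). Endothelial markers summed to 13.7 to 24.6 CPM in Low and 46.4 to 83.9 in High, mostly Vwf, with Emcn at 0 in every bin. Schwann cell and neuron markers summed to 76.1 to 77.7 CPM in Low and 30.7 to 35.4 in High, mostly Mbp. Skeletal muscle markers summed to under 2 CPM in every library. Leukocyte markers summed to 32.9 to 50.3 CPM in Low and 103 to 308 in High. Within that sum Lyz2 rose from 32.7 to 172 CPM (adjusted p = 0.0094 in edgeR) and Cd74 fell from 6.42 to 0.281 CPM (adjusted p = 0.0034 in edgeR). Ptprc held 0.291 CPM in Low and 0.0797 in High and was not called, and Cd3e was at 0 throughout. Suprabasal keratinocyte markers had bin means of 7877, 25198, 16156 and 1578 CPM.

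Other imprinted genes, none of them members, were tested in the same fit. They were listed as expressed from the paternal or the maternal copy in some mouse tissue, and their imprinting in this epithelium was not tested. Of 52 listed genes, 51 were among the symbols and 33 passed the filter. In High against Low 7 rose, 7 fell and 19 were not called, a share close to the 41.2% of all genes called, with a median log2 difference of 0.00 beside -0.01 over all genes tested. In MedLow against Low 1 rose and 2 fell, beside 6.47% of all genes called. In HiMed against MedLow 4 rose and 2 fell, beside 13.6%, and in High against HiMed 5 rose and 2 fell, beside 22.3%. The list as a whole thus had its median near that of all genes, with single genes on either side.

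Among 14 tested genes listed under the paternal copy, 2 rose and 3 fell in High against Low, again beside 41.2% of all genes called. Peg13, a noncoding RNA, rose from 12.4 to 31.5 CPM (log2 difference 1.34, adjusted p = 2.7e-06 in edgeR). The splicing factor gene Zrsr1 rose by 0.44 on the log2 scale (adjusted p = 0.017 in edgeR). Besides Kcnq1ot1, the translation regulator Impact fell by 0.60 (adjusted p = 0.0029 in edgeR). Rasgrf1, an exchange factor for Ras, fell from 0.618 to 0.00750 CPM (adjusted p = 0.017 in edgeR). These levels rest on 69 counts in Low and 1 count in High, so the size of the fall is poorly measured.

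Among 19 tested genes listed under the maternal copy, 5 rose and 4 fell against the same background. Those that rose were Kcnq1, Cobl, Ppp1r9a, Pon2 and Cd81, and those that fell were Zim1, Dlx5, Ascl2 and Phlda2. Dlx5, a homeobox gene, fell from 44.9 to 3.42 CPM (log2 difference -3.71, adjusted p = 7.6e-05 in edgeR). Igf2r, the maternally expressed receptor that removes IGF2 from the cell surface, was not called in this comparison: it held 183 CPM in Low and 187 in High (log2 difference 0.03, SE 0.07, adjusted p = 0.79 in edgeR). It fell slightly in MedLow against Low, by 0.35 on the log2 scale (adjusted p = 0.0080 in edgeR).

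**Figure D5:**
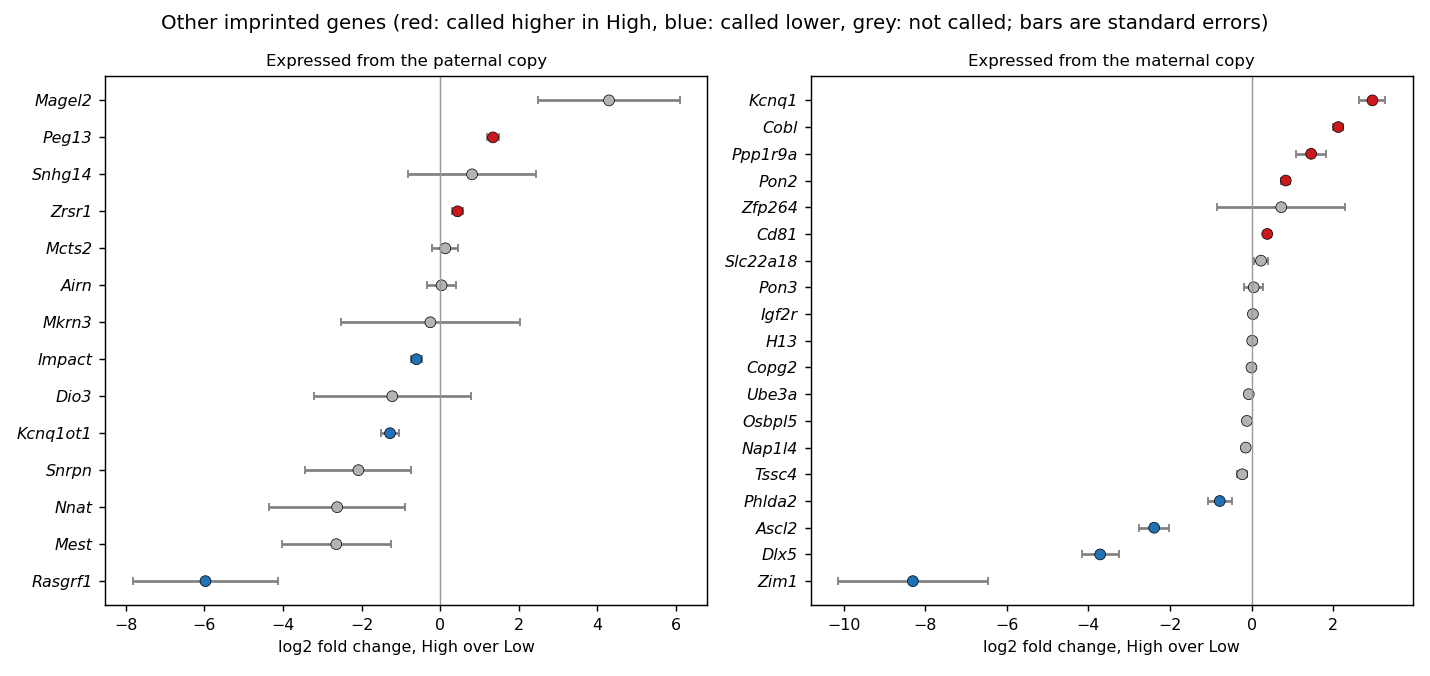
Fitted log2 fold change of High over Low (x axis) with standard errors for the genes that passed the filter (y axis). They are 14 genes listed under the paternal copy and 19 listed under the maternal copy. Coloured points were called by edgeR at an adjusted p below 0.05: 2 higher and 3 lower among paternal genes, 5 higher and 4 lower among maternal genes. The value of Zim1, with no count in High, is not a bound.

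Of 13 tested genes whose products receive, bind or relay IGF2 or bind its transcripts, 3 rose and 6 fell in High against Low, beside 41.2% of all genes called. Their median log2 difference was -0.60, against -0.01 over all genes tested. Igfbp2, a secreted binding protein, fell bin by bin, from 1303 CPM through 503 and 70.7 to 5.11 (log2 difference of High against Low -7.99, adjusted p = 3.6e-07 in edgeR). Igfbp3 fell from 986 to 48.9 CPM (-4.33, adjusted p = 3.7e-12 in edgeR). Pappa, a protease that cleaves IGF binding proteins, fell from 212 to 3.59 CPM (-5.87, adjusted p = 3.0e-07 in edgeR). Igfbp7, Igfbp5 and the adaptor Irs2 also fell.

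In the other direction, Igf2bp2, an RNA-binding protein named for its binding to Igf2 transcripts, had means of 3.71, 7.45, 51.0 and 67.7 CPM with rising brightness (log2 difference of High against Low 4.20, adjusted p = 1.2e-08 in edgeR). It was thus highest in the bin where Igf2 was lowest. The insulin receptor gene Insr rose by 0.81 on the log2 scale (adjusted p = 2.0e-05 in edgeR) and Igfbp4 by 0.83 (adjusted p = 0.0022 in edgeR). Igf1r, the main signalling receptor of IGF2, was not called in High against Low (log2 difference 0.06, SE 0.13, adjusted p = 0.74 in edgeR), but fell in MedLow against Low by 0.58 (adjusted p = 0.013 in edgeR).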

How the data were processed

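RNA of 12 libraries, 3 for each of 4 bins, was analysed. Per the submitters' processing notes, Salmon 1.4.0, DESeq2 1.28.1 and the build mm39 were used; the sources used here give neither the annotation nor the role of DESeq2. The authors deposited estimated counts and TPM per gene symbol. Estimated counts were rounded to whole numbers, scaled by TMM and filtered with filterByExpr (minimum count 10); symbols not tested held 0.0339% of counts. Bins were compared with edgeR 4.0.16 (quasi-likelihood test, R 4.3.3, 1 term per bin, all 12 libraries), with Benjamini-Hochberg adjustment over 17432 genes and calls below 0.05. The fitting code was checked on simulated data. Alternatives used DESeq2 1.42.0 and limma 3.58.1, other scalings and filters, the deposited TPM, and each library left out. The members and lists were chosen with earlier results of these data known. All members were named, with at most 4 called genes of a list (by fold, at least 1 CPM in the higher bin), tested neighbours and the 3 nearest profiles; other genes named were chosen after their values were seen. No 2 libraries of a bin differed by as little as sampling noise. Sequences are RefSeq's on GRCm38.p6, matched by symbol, and no coordinates of mm39 are given.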

Additional observations from a re-analysis of the deposited data

How the results depend on the processing

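Over 23 alternative settings, 669 of 730 recomputed fold changes of members stayed within a set limit of the value reported and 61 moved. The limit was the root of the summed squared SDs of the compared bins on a log2 CPM scale. It is thus wider than the SD of either bin and widest for members whose libraries differ most. Of the differences that had been called, 0 changed sign. Most of those that moved did so on the TPM scales, where the pseudocount shrinks low genes: H19 in High against Low was -6.39 with log2(TPM + 1) and -7.74 with log2(TPM + 0.1), and Peg3 was -3.56 and -5.96. Directions that were not called and not stable were Igf2 in HiMed against MedLow (above 0 in 3 of 24 settings), Ndn (above 0 in 19 of 24) and Cdkn1c (above 0 in 10 of 24) in the same comparison, and Plagl1 in MedLow against Low (above 0 in 3 of 24).

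Counts of called genes over the whole table moved most for the dim bins. For MedLow against Low, 1127 genes became 704 with log2(TPM + 1), 663 with log2(TPM + 0.1), 588 with no filter on TPM and 1806 with the libraries of these bins alone; leaving out a library gave 669 to 1335. For HiMed against MedLow, 2377 became 1526, 1512 and 1210 on the same 3 TPM settings, and 1402 to 2556 with a library left out, the lowest without the second MedLow library. Other imprinted genes called in MedLow against Low went from 3 to 1 with log2(TPM + 1) and to 1 with log2(TPM + 0.1). In HiMed against MedLow they went from 6 to 1 with no filter on TPM, and to 2 to 6 with a library left out (3 without MedLow replicate 1 or 2, and 2 without HiMed replicate 3). In High against Low they were 14, and 11 to 16 with a library left out. The cause of these shifts was not tested.

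Same-numbered libraries of different bins deviated together in 17 of 18 pairs (r from 0.0794 to 0.353 over 9650 genes, against -0.283 to 0.0378 in 36 other pairs), but the labels do not say that a number marks a shared pool. With a replicate block, 7352, 1516, 2828 and 4188 genes were called in the order High against Low, MedLow against Low, HiMed against MedLow and High against HiMed, and 14, 4, 7 and 7 other imprinted genes. Depth limits Dlk1, Meg3 and Peg10, and H19 and Peg3 in High, where 3 counts over a bin are 0.0200 CPM.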

Other observations

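Relatives of the members that are not imprinted took directions of their own. Of 8 tested, 4 rose and 2 fell in High against Low, where 41.2% of all genes were called. Their median log2 difference was 0.39, against -0.01 over all genes tested. Igf1, the sister growth factor of Igf2, rose from 0.0692 CPM in Low to 23.5 ± 9.3 in High (SD, n = 3; log2 difference 8.24, SE 1.32, adjusted p = 0.0015 in edgeR). Grb14, an adaptor of the Grb10 family, rose from 1.398 to 13.0 CPM (3.19, adjusted p = 2.3e-05 in edgeR). Plagl2 rose by 0.55 on the log2 scale (adjusted p = 0.0062 in edgeR) and Grb7 by 0.54 (adjusted p = 0.0012 in edgeR). Dlk2, the relative of Dlk1, fell from 38.6 to 10.4 CPM (-1.89, adjusted p = 1.8e-04 in edgeR), so the relative was well measured where Dlk1 itself was nearly absent. Cdkn1b, the kinase inhibitor p27, fell by 0.79 (adjusted p = 1.6e-05 in edgeR), while Cdkn1a, the inhibitor p21, was not called (0.14, adjusted p = 0.29 in edgeR).

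Of 12 tested genes of DNA methylation and imprint upkeep, 3 rose and 2 fell in High against Low, beside 41.2% of all genes called, with a median log2 difference of 0.01. Dnmt3a, a de novo methyltransferase, rose from 49.2 to 153 CPM (log2 difference 1.64, adjusted p = 5.9e-08 in edgeR). Tet1, which oxidises methylated cytosine, rose from 3.43 to 10.6 CPM (1.63, adjusted p = 3.9e-04 in edgeR), and Zfp445, a zinc finger protein that guards imprints, rose by 0.41 (adjusted p = 0.0017 in edgeR). Uhrf1, the partner of the maintenance methyltransferase, fell by 0.68 (adjusted p = 2.7e-04 in edgeR), and the corepressor Trim28 fell by 0.48 (adjusted p = 6.1e-05 in edgeR). Dnmt1 was not called (-0.07, adjusted p = 0.56 in edgeR).

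Of 9 genes of cycling cells, 6 fell and 0 rose in High against Low by edgeR, where 21.2% of all genes were called lower. Their median log2 difference was -0.65. Mki67 fell from 528 to 192 CPM (log2 difference -1.46, adjusted p = 5.7e-08 in edgeR), and Ccnd1 fell from 284 to 80.5 CPM (-1.82, adjusted p = 2.6e-10 in edgeR). Cdkn1c and Plagl1, members known to restrain the cycle, differed from each other here: Cdkn1c had its highest mean in the bin with the least Mki67, and Plagl1 its lowest. By counts, Cdkn1c was almost as high in Low, where Mki67 was high: 13.5 CPM against 15.6 in High (log2 difference 0.20, SE 0.18). By TPM the gap was wider, with a mean of 16.5 TPM for Low against 27.0 for High. The TPM values of these bins did not overlap (at most 18.5 against at least 25.2). On both scales the HiMed mean of Cdkn1c, 9.62 CPM or 12.1 TPM, was below that of Low. Mki67 was also lower there, at 337 CPM. Cdkn1c thus did not run opposite to Mki67 over all bins on either scale.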
